A study of Neotoma stephensi and Rattus norvegicus with 6 samples.

Results

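Among the 15481 mouse gene identifiers with counted reads in the foregut of woodrats and lab rats, 37 genes (lab rat-dominant genes) had many reads in every lab rat and almost none in woodrats. They were selected on these read counts: at least 30 reads in each of the 3 lab rats and at most 5 reads summed over the 3 woodrats. Both limits use the difference between the species, so the read counts of the 37 genes are given as a description, and no test of that difference is read for them.

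The study sequenced polyA mRNA from the fornix ventricularis, the keratinised forestomach pouch, of 3 Stephen's woodrats (*Neotoma stephensi*) and 3 Sprague Dawley lab rats (*Rattus norvegicus*), all females. The woodrats were caught in the wild in Arizona, were fed juniper foliage and were dissected soon after capture. The lab rats came from a commercial colony and were kept for months on standard chow in a room that also housed woodrats. The woodrat foregut holds a dense microbial community, and the study asked how its gene expression differs from that of a rodent without one. Species, origin, diet and housing differ together, so their contributions cannot be told apart. Nothing in the labels marks a shared litter or day, and all animals are labelled as virgins although the study's methods give this for the lab rats only.

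The counted reads totalled between 5717389 and 7932637 in woodrats and between 5439642 and 7307287 in lab rats. The counted reads are those assigned to mouse coding transcripts, since both species were aligned to the mouse, and unassigned reads are not in the totals. A gene nearly absent in woodrats is therefore one to which few woodrat reads were assigned, and a transcript too different from its mouse counterpart would be counted in the same way. In the study, aligned woodrat reads differed more from mouse on average than aligned lab rat reads did. It reported similar distributions of this divergence in its differentially abundant classes and inferred no global mapping bias between the species. These rates came from reads that aligned, so they do not cover woodrat reads too different to be assigned. Divergence of single genes among the 37 was not tested here. Genes with 0 reads over the lab rats numbered 809 in the files and those with 0 reads over the woodrats numbered 0, so a gene with no woodrat read at all cannot be among the 37. With the roles of the species exchanged, the same limits gave 34 genes, of which 10 had 0 lab rat reads and 24 had 1 to 5. As a check of the forestomach label, 8 squamous markers summed to between 19096 and 32640 CPM (read counts scaled to library size with TMM factors) in lab rats and between 15352 and 36816 CPM in woodrats. In lab rats, Pgc, Muc5ac, Muc6, Tff2, Gkn1, Gkn2 and Gast of the glandular stomach each had 0 reads, whereas Atp4a, the proton pump subunit of acid-secreting cells, had 67, 59 and 35.

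The rodent forestomach is lined by a stratified squamous epithelium that renews itself from a basal layer and sheds a cornified surface. Keratins form the filaments of its cells, and retinoids, the derivatives of vitamin A, are known to influence whether such an epithelium keratinises. Beneath it lie connective tissue with resident immune cells and smooth muscle. Because the samples were pieces of whole tissue, fewer cells of a type and less RNA per cell cannot be told apart for any gene given here.

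The 37 genes together took 12656, 9442 and 12285 reads in lab rats 1, 2 and 3, against 28, 31 and 50 reads in woodrats 1, 2 and 3. That was 0.173%, 0.174% and 0.198% of all counted reads in the lab rats and 0.000490%, 0.000438% and 0.000630% in the woodrats. The lab rat share of raw reads was nearly level among animals, whereas on the TMM scale the genes summed to 1571, 1562 and 2366 CPM in lab rats 1, 2 and 3, the highest in lab rat 3. The reads were spread unevenly over the genes. Krt12 alone took 45.2% of the lab rat reads of the 37 genes, and Krt12, Rbp7 and Ocm together took 63.6%. Without Krt12, the other genes took 0.0971%, 0.0996% and 0.102% of the reads of lab rats 1, 2 and 3.

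**Figure D1:**
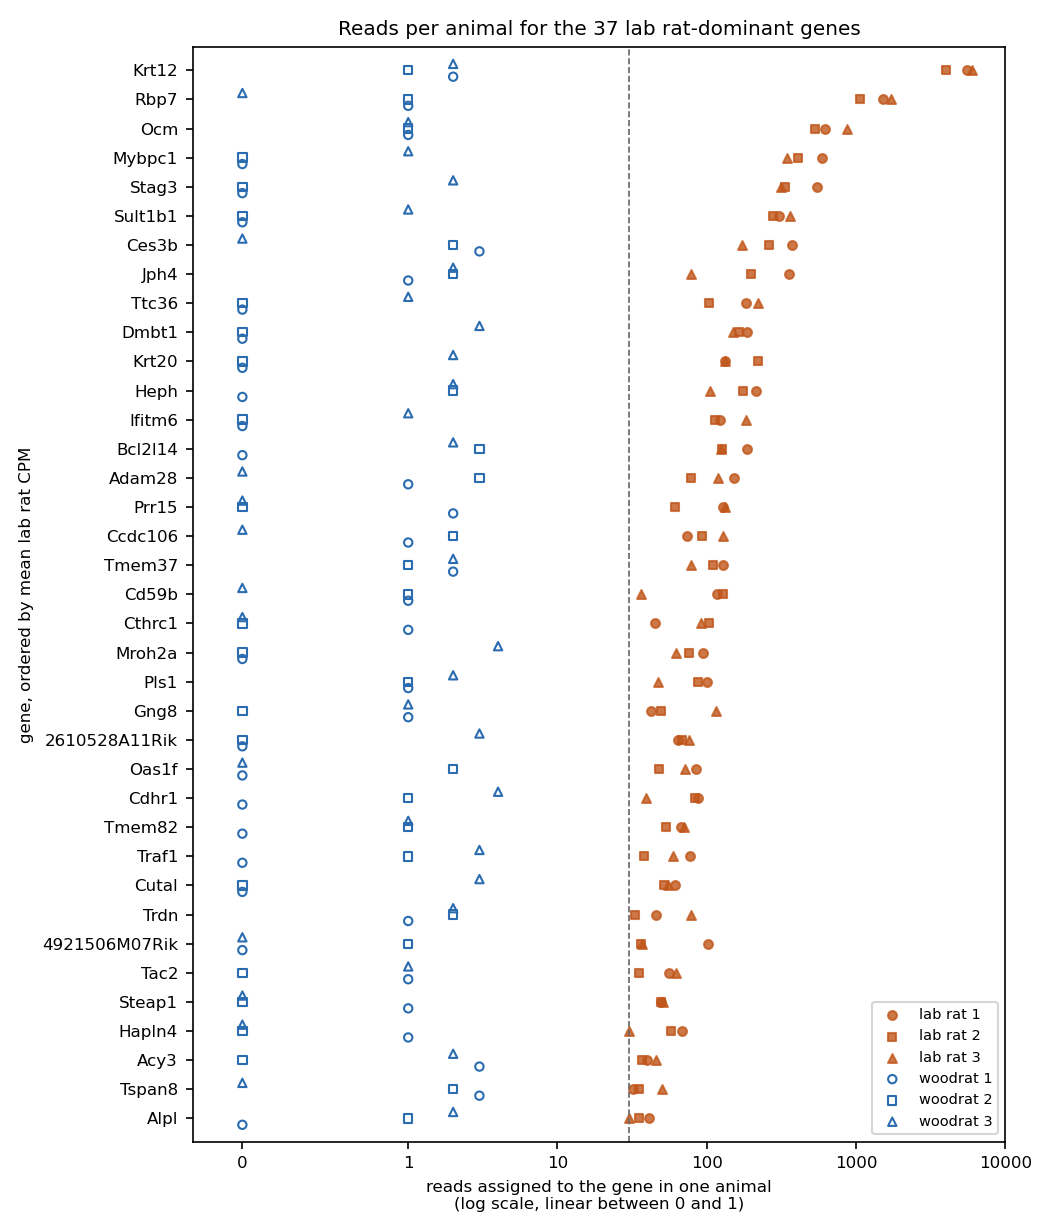
Reads assigned to each of the 37 genes in each animal, on a log axis that is linear between 0 and 1, with genes ordered by their mean lab rat CPM and the limit of 30 reads dashed. Every lab rat point (filled) lies at or right of 30 reads, and no woodrat point (open, shifted vertically for legibility) exceeds 4 reads. The order and the gap between the species follow from the selection.

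The mean lab rat value ran from 5.55 CPM for Alpl to 835 CPM for Krt12. It was above 100 CPM for 3 genes, between 10 and 100 CPM for 24 and at most 10 CPM for 10. The median was 14.3 CPM, against 31.2 CPM for the other 8435 genes with at least 30 reads in each lab rat. CPM counts reads and is not corrected for transcript length, so these values order genes by reads and not by transcript number. In woodrats, 8 genes had 1 read in all, 9 had 2, 6 had 3, 5 had 4 and 9 had 5, and these reads fell in 1 woodrat for 16 genes, in 2 for 15 and in all 3 for 6. The highest value of any of the 37 genes in any woodrat was 0.586 CPM, and the lowest in any lab rat was 3.97 CPM. In a woodrat or lab rat library, 3 reads correspond to between 0.355 and 0.586 CPM, so nearly all woodrat values lie at or below that level.

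The pooled ratio of a gene, its lab rat reads over its woodrat reads after scaling to the normalised library sizes, ranged from 25.2 for Tspan8 to 3348 for Krt12, with a median of 133. Its 95% interval, by the exact binomial method, covers counting error only and not the spread between animals. The lowest bound of any interval was 10.5. The selection limits keep every ratio and bound high, so these values describe the selected counts only. All 37 genes passed the filter on low values and were called lower in woodrats by the edgeR quasi-likelihood test at a false discovery rate (FDR) below 0.01. Among all 12603 genes tested, 9.71% were called lower. Nothing is read from the comparison of these shares, because the selection used the same contrast.

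Of the 8472 genes with at least 30 reads in each lab rat, the 37 were 0.437%, a further 80 (0.944%) had 6 to 20 woodrat reads, 492 (5.81%) had 21 to 100 and 7863 (92.8%) had more than 100. The limits fall within a continuous range of values. Just inside the woodrat limit, at 5 reads, stood Krt12, Ces3b, Jph4, Bcl2l14, Tmem37, Cdhr1, Trdn, Acy3 and Tspan8. Just outside it, 15 genes had 6 to 8 woodrat reads: Ighm, Creb3l4, Aadac, Ighg3, Ppp1r36, Dnah1, Caly, Il33, Gldc, Etnk2, Cd48, Irf8, Zfp788, Nrros and Hilpda. Ighm, the constant region of immunoglobulin M, had 1558, 939 and 1370 reads in lab rats 1, 2 and 3 and 2 reads in each woodrat. Ighg3, an immunoglobulin G constant region, had 267, 181 and 368 reads in the lab rats and 0, 1 and 5 in the woodrats.

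Trdn, Hapln4, Tspan8 and Alpl were just inside the lab rat limit, each with between 30 and 34 reads in its lowest lab rat. A further 11 genes had 25 to 29 reads in their lowest lab rat and at most 5 over the woodrats: Crisp1, Slc19a3, Serpina11, Bcl2l15, Spink8, Zmynd10, Glyctk, Elf3, H2-M3, Ntng2 and Styxl1. Crisp1, a secreted cysteine-rich protein, had 243 reads in lab rat 1 but 25 and 35 in the others, and so missed the limit in 1 animal. Bcl2l15, a relative of the selected Bcl2l14, had 54, 29 and 60 lab rat reads and 0, 1 and 1 woodrat reads.

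**Figure D2:**
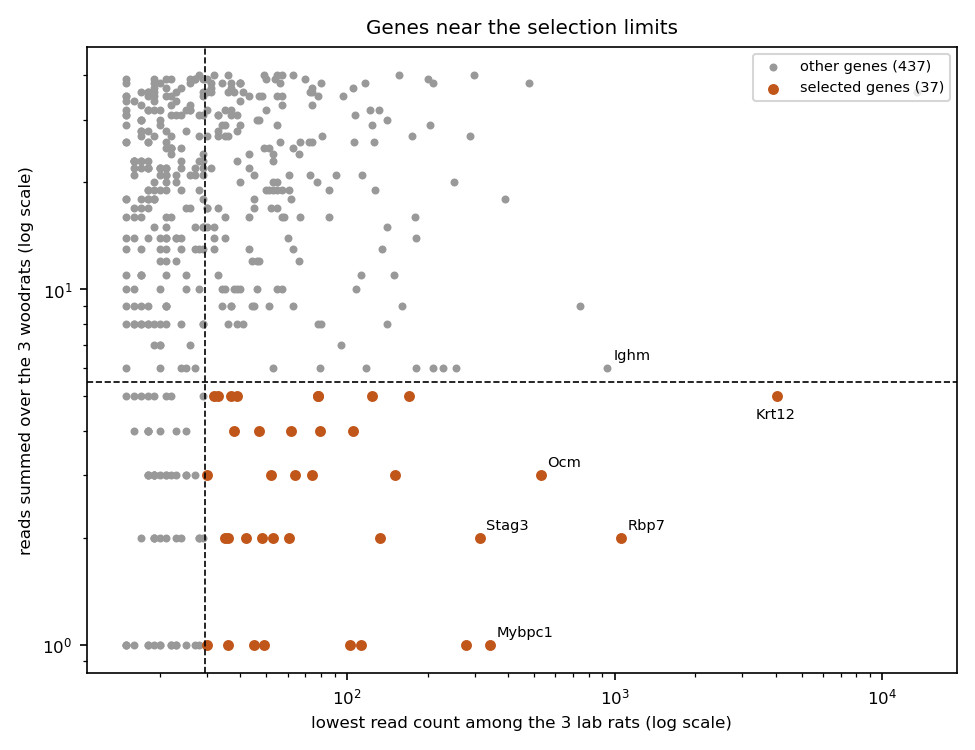
Lowest read count among the 3 lab rats against the reads summed over the 3 woodrats, both on log axes, for the genes with at least 15 reads in every lab rat and at most 40 over the woodrats. The 37 selected genes fill the corner below and right of the dashed limits, with Krt12, Rbp7, Ocm, Mybpc1 and Stag3 far to the right, and Ighm lies just above the woodrat limit.

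Of the selected genes, 7 belong to the structure and surface of epithelia, and they carried 17313 of the 34383 lab rat reads and 27 of the 109 woodrat reads. Krt12 (ENSMUSG00000020912.4), a type I keratin known as the keratin of the corneal epithelium, had 5563, 4024 and 5969 reads in lab rats 1, 2 and 3, and 2, 1 and 2 reads in woodrats 1, 2 and 3. It stood at 835 ± 273 CPM in lab rats (SD, n = 3), rank 159 among all genes by mean lab rat CPM. At the lab rats' pooled level the woodrat libraries would have held 16742 Krt12 reads in all, where 5 were counted, a ratio of 3348 (95% interval 1435 to 10314). Krt20 (ENSMUSG00000035775.2), a type I keratin known from the surface cells of the intestine and urothelium, had 133, 222 and 133 lab rat reads and 0, 0 and 2 woodrat reads. Lab rat 2 was the highest for Krt20 and lab rat 1 the lowest, at 36.7 against 16.5 CPM.

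Dmbt1, a secreted scavenger receptor protein of mucosal surfaces that binds bacteria, had 186, 164 and 151 reads in the lab rats and 0, 0 and 3 in the woodrats, all 3 in woodrat 3. Its lab rat values lay close together at 26.4 ± 3.06 CPM (SD, n = 3). Pls1, an actin-bundling plastin of the intestinal brush border, had 100, 87 and 47 lab rat reads and 1, 1 and 2 woodrat reads. Reads of Cdhr1, a cadherin-related protein known from photoreceptors, numbered 87, 83 and 39 in lab rats and 0, 1 and 4 in woodrats, the largest count of any of the 37 genes in 1 woodrat together with Mroh2a. The transcript 2610528A11Rik, which encodes a secreted ligand of the receptor Gpr15 made by epithelia, had 64, 68 and 76 lab rat reads and 0, 0 and 3 woodrat reads. Tspan8, a tetraspanin of gut epithelia, had 32, 35 and 50 reads against 3, 2 and 0, the smallest ratio of the 37 genes (25.2, 95% interval 10.5 to 79.0).

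Krt20, Pls1 and Tspan8 are known from glandular or intestinal epithelium, and markers of those tissues were counted beside them. In lab rats the 4 intestinal markers present summed to between 0.869 and 1.93 CPM. Fabp2 had 0, 4 and 3 reads, Muc2 had 1, 1 and 0 and Apoa4 had 0 in each, and the remaining marker held the rest of the sum. In woodrats the same markers summed to between 21.8 and 28.8 CPM, mostly Muc2 with 111, 149 and 238 reads. The 9 glandular stomach markers present summed to between 6.74 and 9.92 CPM in lab rats and between 7.91 and 13.5 CPM in woodrats. The lab rat sum was mostly Atp4a and lay in the range of Tspan8, which ran from 3.97 to 9.63 CPM. The part of glandular or intestinal cells in the reads of Krt20, Pls1 and Tspan8 was not tested.

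The 7 genes of small-molecule and metal metabolism carried 6904 lab rat reads and 21 woodrat reads. Rbp7 (ENSMUSG00000028996.8), a cellular retinol-binding protein known from fat and endothelium, had 1522, 1060 and 1705 reads in lab rats 1, 2 and 3, and 1, 1 and 0 in woodrats 1, 2 and 3. Its lab rat level was 231 ± 84.7 CPM (SD, n = 3), and its ratio was 2307 (95% interval 638 to 19055). Fabp4, which is shared by adipocytes and endothelium, had 455, 152 and 368 reads in the lab rats and 110, 97 and 163 in the woodrats. The 3 adipocyte markers present, Fabp4 among them, summed to between 25.3 and 73.6 CPM in lab rats and between 14.2 and 22.7 CPM in woodrats. Fabp4 made up most of these sums, so they are not a separate measure of adipocytes. The 1 adipocyte marker tested was not called by edgeR, but was lower in woodrats by DESeq2 and at an unadjusted p under 0.05. The endothelial markers summed to between 64.7 and 91.2 CPM in lab rats and between 34.8 and 68.6 CPM in woodrats. The part of these cells in the Rbp7 reads was not tested.

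Sult1b1 (ENSMUSG00000029269.10), a cytosolic sulfotransferase that conjugates phenols and thyroid hormones, had 305, 278 and 361 lab rat reads and a single woodrat read, in woodrat 3. Ces3b, a carboxylesterase that hydrolyses esters of lipids and foreign compounds, had 370, 260 and 171 reads in lab rats and 3, 2 and 0 in woodrats. Both phase II conjugation and ester hydrolysis thus had a gene of more than 40 CPM in lab rats among the 37, at 51.1 ± 16.5 CPM for Sult1b1 and 40.6 ± 6.81 CPM for Ces3b (SD, n = 3). Heph, a membrane ferroxidase that passes iron out of gut cells, had 214, 175 and 105 lab rat reads and 0, 2 and 2 woodrat reads.

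Steap1, of a family of metal reductases, had 49, 49 and 51 reads in lab rats and 1, 0 and 0 in woodrats. Acy3, which deacetylates mercapturic acids, had 40, 37 and 46 lab rat reads and 3, 0 and 2 woodrat reads. Alpl, the tissue-nonspecific alkaline phosphatase, had 41, 35 and 30 reads against 0, 1 and 2. Its 5.55 ± 0.402 CPM (SD, n = 3) was the lowest mean lab rat value of the 37 genes.

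Genes of calcium handling and muscle numbered 5, with 4463 lab rat reads and 19 woodrat reads. Ocm (ENSMUSG00000029618.12), oncomodulin, is a small calcium-binding protein of the parvalbumin family known from hair cells of the ear and from immune cells. It had 617, 529 and 865 reads in lab rats 1, 2 and 3 and 1 read in each woodrat, a ratio of 721 (95% interval 247 to 3501). Mybpc1 (ENSMUSG00000020061.16), the slow skeletal myosin-binding protein C, had 594, 407 and 343 lab rat reads and 1 woodrat read, in woodrat 3. Scaled to library size, its 3 lab rats were nearly equal, at 69.0 ± 4.10 CPM (SD, n = 3).

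Jph4, a junctophilin that ties the plasma membrane to calcium stores, had 358, 198 and 78 reads in the lab rats and 1, 2 and 2 in the woodrats. Lab rat 3 was the lowest for Jph4, with 15.0 CPM against 44.4 CPM in lab rat 1. Tmem37, related to calcium channel gamma subunits, had 128, 110 and 78 reads against 2, 1 and 2. Trdn, triadin of the calcium release complex of striated muscle, had 46, 33 and 79 reads against 1, 2 and 2.

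Markers of striated muscle were mixed. They summed to between 66.0 and 102 CPM in lab rats and to between 212 and 457 CPM in woodrats, mostly because of the muscle creatine kinase Ckm. Ckm had 130, 159 and 189 lab rat reads and 1692, 1512 and 1179 woodrat reads. The 4 markers tested had a median log2 fold change, woodrat minus lab rat, of −0.65, and 0 were called lower and 1 (Ckm) higher by edgeR, with 2 lower and 1 higher at an unadjusted p under 0.05. DESeq2 called 1 lower and 1 higher. Tnnc2, a troponin of fast muscle, had 25, 11 and 76 reads in lab rats and 1, 4 and 5 in woodrats. Myh2, a fast skeletal myosin, had 6, 14 and 9 reads against 3, 1 and 1, and Ttn, titin, had 0, 0 and 1 against 2, 6 and 10. The part of striated muscle in the reads of Mybpc1 and Trdn was not tested.

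The 6 genes of immune defence and cell death carried 1866 lab rat reads and 18 woodrat reads. Ifitm6, of the interferon-induced transmembrane proteins that hinder virus entry, had 123, 113 and 183 lab rat reads and 0, 0 and 1 woodrat reads. Bcl2l14, a Bcl2-like regulator of cell death, had 185, 127 and 124 reads in lab rats and 0, 3 and 2 in woodrats, and its lab rat level hardly varied (22.6 ± 1.47 CPM, SD, n = 3). Adam28, a metalloprotease known from lymphocytes, had 153, 79 and 119 reads against 1, 3 and 0.

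Cd59b, an inhibitor of the complement attack complex, had 117, 129 and 36 reads in lab rats and 1, 1 and 0 in woodrats. Oas1f, of the 2′-5′ oligoadenylate synthetases of the interferon response, had 85, 48 and 71 reads against 0, 2 and 0. Traf1, an adaptor of tumour necrosis factor receptors, had 77, 38 and 59 reads against 0, 1 and 3. Cd59b, Oas1f, Ifitm6 and Ces3b have close copies in the mouse genome, so the share of reads that each received is uncertain.

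Leukocyte markers were also lower in woodrats, a direction that the selection fixed for the 6 immune genes. The 9 markers summed to between 66.5 and 103 CPM in lab rats and between 7.03 and 13.3 CPM in woodrats, with Ptprc, the pan-leukocyte CD45, at 75, 27 and 11 reads against 1, 5 and 4. Of the 6 markers tested, 5 were called lower in woodrats by edgeR's quasi-likelihood test at an FDR below 0.01, and between 2 and 4 when 1 animal was left out, the fewest without woodrat 2. The B cell markers Cd79a and Cd79b were at or near 0 in lab rats, with 2, 0 and 0 reads and 0 reads in each. In lab rats 1, 2 and 3 the 9 leukocyte markers summed to 103, 66.5 and 74.3 CPM, and the 6 immune genes to 91.8, 88.3 and 114 CPM. The part of leukocyte number in the reads of the 6 genes was not tested.

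The 4 genes of signalling and matrix carried 754 lab rat reads and 6 woodrat reads. Cthrc1, a secreted collagen triple helix repeat protein of wound healing, had 45, 103 and 91 lab rat reads and 1, 0 and 0 woodrat reads. Gng8, a gamma subunit of heterotrimeric G proteins, had 42, 49 and 115 reads against 1, 0 and 1, with lab rat 3 at 22.2 CPM and lab rat 1 at 5.21 CPM. Tac2, the precursor of the neuropeptide neurokinin B, had 56, 35 and 62 reads against 1, 0 and 1.

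Hapln4, a link protein that joins hyaluronan to proteoglycans and is known from brain, had 68, 58 and 30 reads in lab rats and 1, 0 and 0 in woodrats. The markers of enteric neurons and glia overlapped between the species, at 23.1 to 30.2 CPM in lab rats and 25.8 to 36.9 CPM in woodrats, and 0 of the 6 tested were called different by edgeR or DESeq2, with 1 lower and 1 higher at an unadjusted p under 0.05.

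Stag3 and 7 less described genes made up the rest, with 3083 lab rat reads and 18 woodrat reads. Stag3 (ENSMUSG00000036928.13), a cohesin subunit known from meiosis, had 545, 335 and 314 reads in lab rats 1, 2 and 3 and 0, 0 and 2 in the woodrats. It stood at 61.2 ± 6.14 CPM in lab rats (SD, n = 3), with a ratio of 643 (95% interval 177 to 5312). Other genes of the meiotic chromosome axis had few or no reads in lab rats, where Rec8 had 1, 0 and 0 reads, Sycp2 4, 1 and 0, and Sycp1 and Dmc1 0 in each.

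Ttc36, a small tetratricopeptide repeat protein, had 183, 103 and 219 lab rat reads and 0, 0 and 1 woodrat reads. The proline-rich Prr15 had 129, 61 and 133 reads against 2, 0 and 0, and the coiled-coil gene Ccdc106 had 74, 93 and 128 against 1, 2 and 0. Mroh2a, of a family with HEAT-like repeats, had 95, 76 and 62 reads against 0, 0 and 4. Scaled to library size, Mroh2a had the smallest spread among lab rats of the 37 genes, at 12.1 ± 0.414 CPM (SD, n = 3). Tmem82, a membrane protein, had 67, 53 and 70 reads against 0, 1 and 1, and Cutal, a relative of the CutA proteins, had 61, 52 and 55 against 0, 0 and 3. The gene 4921506M07Rik, known by its clone name only, had 102, 36 and 37 reads in lab rats and 1 read in woodrat 2.

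The spread of the 37 genes among lab rats was not used by the selection beyond the lower limit of 30 reads. The coefficient of variation of CPM over the 3 lab rats ranged from 3.42% for Mroh2a to 76.6% for Gng8, with a median of 29.7%. For the other 8435 genes with at least 30 reads in each lab rat the median was 21.7%. The highest lab rat exceeded the lowest more than 2-fold for 14 of the 37 genes (37.8%), against 19.2% of those other genes. The 37 genes had fewer reads than the others, and the part of read number in this spread was not tested.

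Lab rat 3 had the highest CPM for 23 of the 37 genes (62.2%), lab rat 2 for 9 (24.3%) and lab rat 1 for 5 (13.5%). Among the other genes the share with their highest value in lab rat 3 was 50.2%. Krt12, Rbp7, Ocm, Sult1b1, Ttc36 and Ifitm6 all peaked in lab rat 3. Jph4, Cd59b, Heph, Pls1, Cdhr1, Ces3b and Hapln4 had their lowest value in that animal. The 37 genes thus did not vary together among lab rats.

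**Figure D3:**
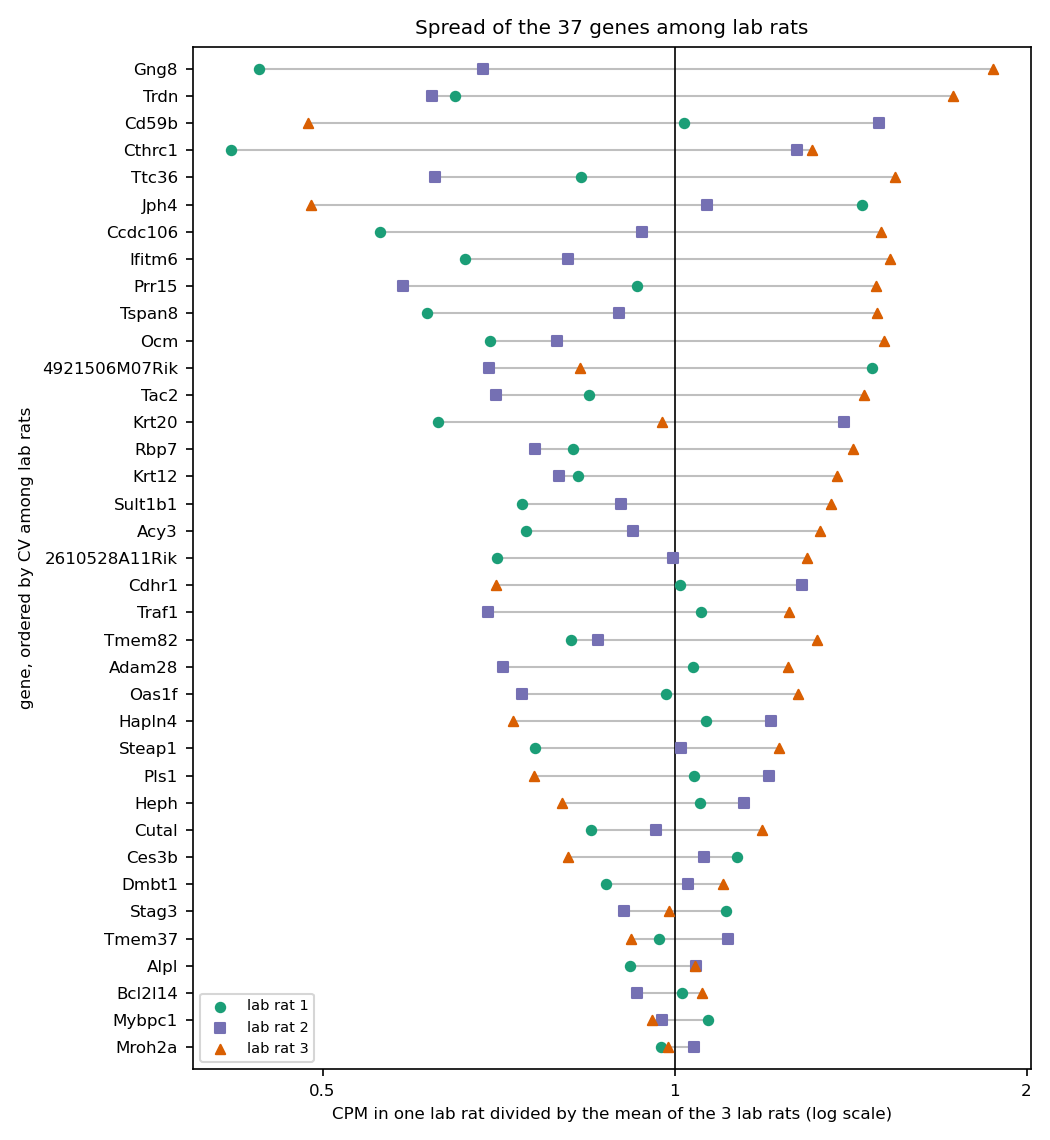
CPM of each of the 37 genes in each lab rat divided by its mean over the 3 lab rats, on a log axis, with genes ordered by their coefficient of variation and a grey line from the lowest to the highest animal. Gng8, Trdn, Cd59b and Cthrc1 spread widest and Mroh2a, Mybpc1 and Bcl2l14 least, and lab rat 3 (triangles) is the highest animal for 23 genes.

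Relatives of the 37 genes that the selection did not pick were measured in the same libraries. They were taken by gene symbol after the 37 genes were known, and 97 could be tested by edgeR's quasi-likelihood test with Benjamini-Hochberg adjustment over all genes. Of these, 18 (18.6%) were called lower in woodrats and 9 (9.28%) higher, against 9.71% and 10.3% of all 12603 genes. Their median log2 fold change, woodrat minus lab rat, was −0.15, against 0.03 for all genes. Most relatives were not called in either direction.

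**Figure D4:**
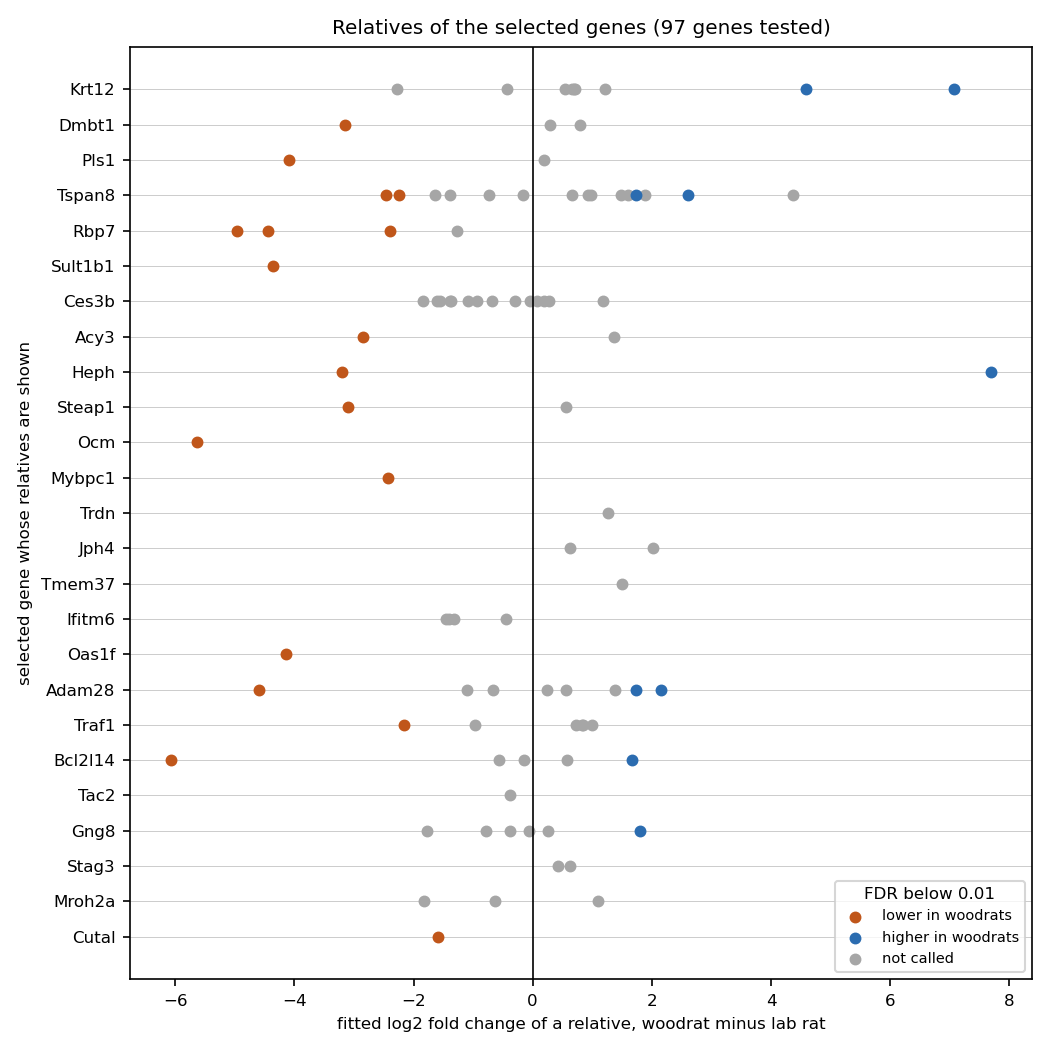
Fitted log2 fold change, woodrat minus lab rat, of each tested relative (points) of a selected gene (rows), coloured by its call at an FDR below 0.01 in the edgeR quasi-likelihood test. The relatives of Rbp7 lie to the left, those of Ces3b, Ifitm6, Jph4 and Stag3 are grey, and those of Krt12, Heph, Tspan8, Adam28 and Bcl2l14 include points called higher.

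Relatives of Rbp7 were also called lower in woodrats. Rbp2, the intestinal cellular retinol-binding protein, had 872, 740 and 1087 reads in lab rats and 44, 18 and 77 in woodrats, a log2 fold change of −4.44 ± 0.518 (SE, edgeR FDR 0.000836). Crabp2, a retinoic acid-binding protein, had 4247, 3099 and 4843 reads against 503, 984 and 1173 (−2.40 ± 0.342 on the log2 scale, edgeR FDR 0.00163). The species did not overlap for Rbp2 or Crabp2, and both calls held in each of the 6 fits that left out 1 animal. Crabp1 was not called (−1.27 ± 0.491 on the log2 scale, edgeR FDR 0.0680).

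On a wider list of retinoid binding and metabolism, 8 of the 16 genes tested besides Rbp7 were called lower and 1 higher, with a median log2 fold change of −2.15. Several genes of this and the following lists were known from earlier results of these libraries, so their counts are not independent evidence of a direction. Adh6a, an alcohol dehydrogenase, had 8069, 2467 and 2177 lab rat reads and 16, 6 and 54 woodrat reads (−7.44 ± 0.781 on the log2 scale, edgeR FDR 0.000626). Adh1, which oxidises retinol and ethanol, had 4069, 1627 and 1493 reads against 33, 199 and 122 (−4.44 ± 0.555 on the log2 scale, edgeR FDR 0.00103). Stra6, the receptor that takes up retinol from its plasma carrier, went the other way, with 1, 0 and 0 reads in lab rats and 9, 34 and 27 in woodrats (edgeR FDR 0.00212). Leaving out lab rat 1, 2 or 3 took its FDR to or past the limit, up to 0.0113 without lab rat 3. Leaving out 1 animal gave between 7 and 9 genes called lower on this list.

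The type I keratins did not follow Krt12 and Krt20. Of the 9 others tested, 0 were called lower and 2 higher in woodrats by edgeR, with 1 lower and 2 higher at an unadjusted p under 0.05, and DESeq2 called 1 lower. Leaving out 1 animal gave between 0 and 1 lower and between 1 and 2 higher. The study described mapping across species as difficult within the keratins and summed their reads by family in a secondary analysis. The share of reads that each keratin received, Krt12 and Krt20 included, is therefore uncertain. Krt24 had 4, 4 and 2 reads in lab rats and 161, 121 and 1410 in woodrats (7.07 ± 1.05 on the log2 scale, edgeR FDR 0.00185, but 0.0170 without lab rat 3). Krt19, of simple and basal epithelial cells, had 1, 3 and 11 reads against 49, 210 and 189 (4.59 ± 0.786 on the log2 scale, edgeR FDR 0.00319, but 0.0132 without woodrat 2 and 0.0159 without lab rat 2). Krt13, the suprabasal keratin of mucosal squamous epithelium, had 67685, 55598 and 68183 lab rat reads and 42938, 126259 and 160899 woodrat reads, and was not called (0.55 ± 0.506 on the log2 scale, edgeR FDR 0.411).

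Heph had relatives called in both directions, whereas Steap1 had 1 relative called lower and 1 not called among those tested. Ceruloplasmin, Cp, the secreted ferroxidase, had 70, 35 and 46 reads in lab rats and 10, 4 and 2 in woodrats (−3.19 ± 0.646 on the log2 scale, edgeR FDR 0.00607). Hephl1, another ferroxidase of this family, had 1, 0 and 0 reads in lab rats and 10, 53 and 283 in woodrats (edgeR FDR 0.00445). The woodrats covered a wide range for Hephl1, and woodrat 3 held most of its reads. The call of Cp was lost without woodrat 2 (FDR 0.0292) and without lab rat 1, 2 or 3 (FDR 0.0148 to 0.0234). That of Hephl1 was lost without lab rat 1, 2 or 3 (FDR 0.0178 to 0.0302). Steap2 was lower in woodrats (−3.10 ± 0.587 on the log2 scale, edgeR FDR 0.00465, but 0.0118 to 0.0186 without woodrat 1 or without lab rat 1, 2 or 3), and Steap3 was not called (0.57 ± 0.408 on the log2 scale, edgeR FDR 0.294).

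Pvalb, parvalbumin, the relative of Ocm, had 108, 137 and 180 lab rat reads and 0, 0 and 10 woodrat reads (−5.63 ± 0.894 on the log2 scale, edgeR FDR 0.00244, but 0.0128 without lab rat 3). Mybpc2, the fast muscle relative of Mybpc1, had 155, 132 and 211 reads against 40, 21 and 38 (−2.44 ± 0.457 on the log2 scale, edgeR FDR 0.00448, but 0.0116 to 0.0192 without woodrat 2 or without lab rat 2 or 3). Both moved in the direction of their selected relative and kept some woodrat reads. The wider sarcomere list was mixed, with 2 of 15 genes called lower (Mybpc2 and Myl2) and 2 higher (Ckm and Tnni2). Without woodrat 2, 0 were called lower, and without lab rat 1 or 2 the FDR of Tnni2 was 0.0120 or 0.0111.

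Sult1a1, the phenol sulfotransferase, had 199, 207 and 390 reads in lab rats and 4, 29 and 13 in woodrats (−4.35 ± 0.642 on the log2 scale, edgeR FDR 0.00184). Acy1, the aminoacylase related to Acy3, had 460, 492 and 445 reads against 64, 94 and 49 (−2.84 ± 0.362 on the log2 scale, edgeR FDR 0.00110). Both calls held in each of the 6 fits that left out 1 animal. The carboxylesterases differed from Ces3b, since 0 of the 14 relatives tested were called in either direction by edgeR. At an unadjusted p under 0.05, 2 were lower and 0 higher. DESeq2 called 2 of the 14 lower (Ces1d and Ces2f), and edgeR called 1 lower (Ces2f) when woodrat 1 was left out. Each tested relative had fewer reads in woodrat 1 than in woodrats 2 and 3, for example Ces2f with 40 against 301 and 351.

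Stag1 and Stag2, the cohesin subunits of dividing somatic cells, were not called (0.62 ± 0.274 and 0.43 ± 0.265 on the log2 scale, edgeR FDR 0.102 and 0.222). Of the 5 cohesin genes tested, 0 were called by edgeR, by DESeq2 or in any fit that left out 1 animal, and 0 had an unadjusted p under 0.05. Smc1a had 900, 621 and 701 reads in lab rats and 593, 720 and 742 in woodrats, and Smc3 had 664, 478 and 378 against 420, 719 and 771.

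Several other relatives also split. Beside those given below, Bcl2l15, Ssc4d, Traf4, Tspan13, Oas1g and Cuta were called lower, and their calls held in 6, 5, 5, 3, 1 and 0 of the 6 leave-one-out fits. Bcl2l13, Tspan7 and Gng2 were called higher, held in 2, 1 and 0 of them. Lcp1, the leukocyte plastin, had 186, 95 and 55 lab rat reads and 5, 4 and 11 woodrat reads (−4.09 ± 0.475 on the log2 scale, edgeR FDR 0.000832), whereas Pls3, the plastin of solid tissues, was not called (0.20 ± 0.399 on the log2 scale, edgeR FDR 0.720). Adam8, a protease of myeloid cells, was lower in woodrats (−4.60 ± 0.448 on the log2 scale, edgeR FDR 0.000483), whereas Adam19 and Adam33 were higher (2.16 ± 0.479 and 1.73 ± 0.378, edgeR FDR 0.00883 and 0.00829). Adam19 stayed called only without woodrat 3 (FDR 0.0113 to 0.0374 without any other animal), and Adam33 only without woodrat 3 or lab rat 3 (FDR 0.0215 to 0.0356 without any other). Tspan6 was lower (−2.47 ± 0.276 on the log2 scale, edgeR FDR 0.000744) and Tspan2 higher (2.61 ± 0.467 on the log2 scale, edgeR FDR 0.00379, but 0.0117 to 0.0144 without woodrat 2 or without lab rat 1 or 3). Of the 4 Ifitm and 2 junctophilin relatives tested, 0 were called by edgeR, although 2 Ifitm relatives were lower and 1 junctophilin higher at an unadjusted p under 0.05. DESeq2 called 2 Ifitm relatives lower and 1 junctophilin higher. Ifitm3 stood at −1.32 ± 0.333 and Jph1 at 2.03 ± 0.473 on the log2 scale (edgeR FDR 0.0151 and 0.0110).

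Over all 22 family and pathway lists, 215 genes outside the 37 were tested, of which 63 (29.3%) were called lower in woodrats and 16 (7.44%) higher by edgeR, against 9.71% and 10.3% of all genes. Leaving out 1 animal gave between 37 and 69 lower, the fewest without woodrat 2 and 39 without lab rat 3, and between 6 and 17 higher, with 6 to 9 without woodrat 2 or without lab rat 1, 2 or 3. Their median log2 fold change was −0.68. Immune lists held many of these calls. Of 16 myeloid genes, 12 were called lower and 0 higher, with a median log2 fold change of −3.24, but only 2 when woodrat 2 was left out. Fcgr3, an immunoglobulin receptor of macrophages, had 114, 59 and 45 lab rat reads and 3, 1 and 5 woodrat reads (−4.59 ± 0.525 on the log2 scale, edgeR FDR 0.000808).

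Of 23 genes of the major histocompatibility complex and its pathway, 11 were called lower and 0 higher, and between 8 and 11 when 1 animal was left out. H2-Eb1, a class II chain that presents peptides, had 307, 181 and 312 reads against 2, 4 and 8 (−5.98 ± 0.463 on the log2 scale, edgeR FDR 0.000212). Of 13 complement genes, 5 were called lower, between 3 and 6 when 1 animal was left out with the fewest without woodrat 2. C7, of the attack complex that Cd59b inhibits, had 244, 175 and 66 reads against 2, 4 and 6 (−5.35 ± 0.501 on the log2 scale, edgeR FDR 0.000386), whereas C3, the central component, had 46, 19 and 22 against 86, 186 and 214 (2.36 ± 0.347 on the log2 scale, edgeR FDR 0.00181). Of 16 genes of inflammatory cell death and the Bcl2 family, 5 were lower and 1 higher, and between 2 and 5 were lower when 1 animal was left out, with 2 without woodrat 2. Mlkl, the effector of necroptosis, had 268, 238 and 160 reads against 1, 0 and 8 (−6.30 ± 0.680 on the log2 scale, edgeR FDR 0.000674). The leukocyte marker sums given above differ between the species in the same direction as these lists, and their part in them was not tested.

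**Figure D5:**
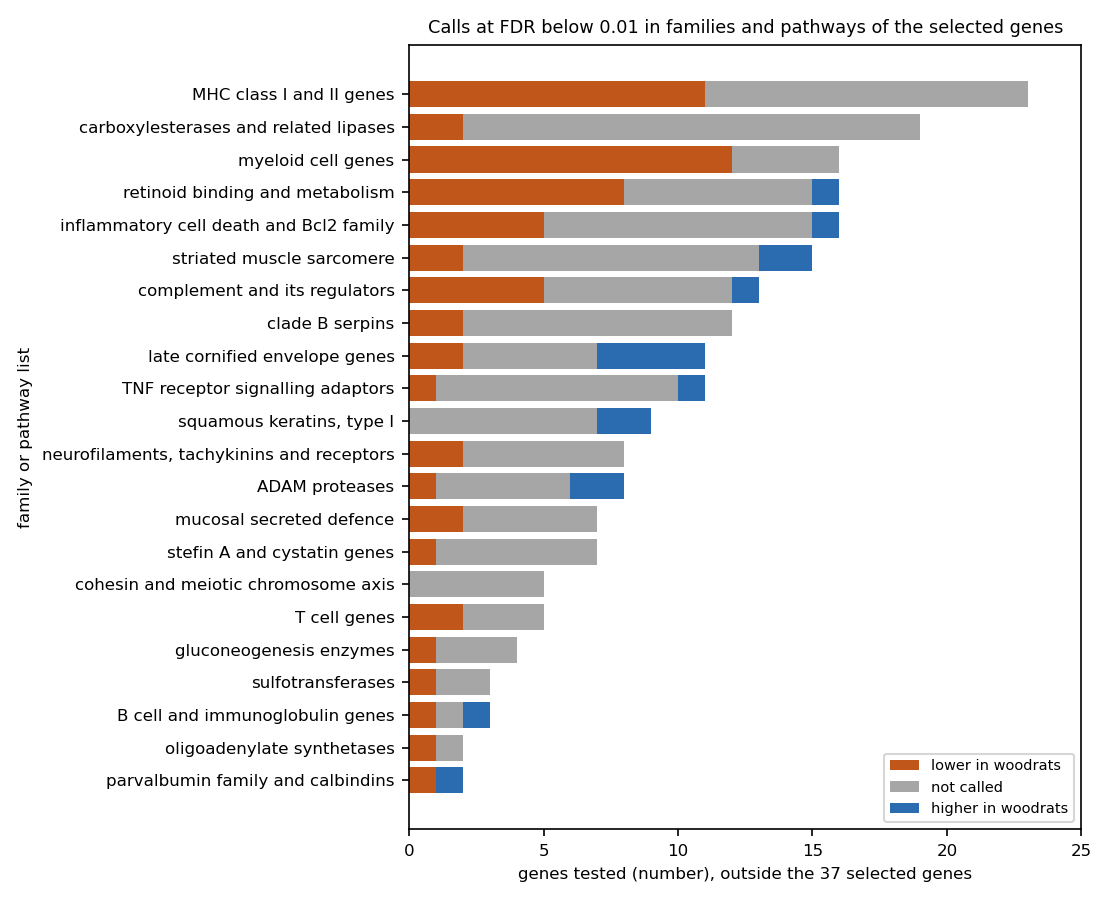
Number of tested genes of each family or pathway list, without the 37 selected genes, that were called lower in woodrats, not called, or called higher in woodrats at an FDR below 0.01 in the edgeR quasi-likelihood test. Calls of lower are most numerous in the myeloid list (12 of 16), the histocompatibility list (11 of 23) and the retinoid list (8 of 16), while type I keratins (0 of 9) and cohesin genes (0 of 5) have none.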

How the data were processed

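Foregut polyA RNA of 3 woodrats and 3 lab rats, grouped by their sample titles, was measured by RNA-seq. The authors trimmed read pairs with Trimmomatic, merged them with FLASH, aligned them with cross_match to mouse coding transcripts of GENCODE and deposited raw counts per mouse gene and animal, with no normalization and only reads assigned to a single gene. The submitters' processing notes name the build mm9. Tool versions are not given in the sources used here. Total counts per animal, 5439642 to 7932637, put 3 reads at 0.355 to 0.586 CPM.

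Counts were joined by gene identifier with pandas 2.3.3, and the 37 genes were taken by the limits of 30 and 5 reads. The members, family lists and relatives were chosen with earlier results of these data known, and the functional groups and symbol stems after the members were seen. The 12603 genes that reached 1 CPM in 3 or more animals were tested with edgeR 4.0.16 in R 4.3.3, a lower filter than the study's, which is given as an alternative at 5 CPM: TMM factors, the legacy quasi-likelihood F-test on species alone, fold changes with a prior count of 0.125, Benjamini-Hochberg adjustment and an FDR below 0.01. The p-values measure the spread between these animals. On simulated counts at these library sizes, 100 of 100 genes changed by 3 and 100 of 100 changed by 5 on the log2 scale were recovered, with 0 false calls among 12603. The simulation gave every gene the same dispersion. It therefore checks that the code runs as intended and does not measure power or error at the spread of these animals. Ratio intervals at 95% are exact binomial intervals of pooled reads (scipy 1.17.1) and cover counting error only.

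All 37 genes are given with their reads. Other genes were named if called at an FDR below 0.01, at most 3 per list and direction, if the closest relatives of a named gene, or if near the limits. For some lists fewer are named. Genes such as Krt13, Smc1a, Ces1d and Ces2f, and the markers, are named for context. Alternatives were other filters, size factors, total counts, the edgeR 4 method, DESeq2 1.42.0, a replicate block, an FDR of 0.05, other limits and each animal left out. One gene is not reported here. No reference genome was used, so neither gene positions nor sequences are given.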

Additional observations from a re-analysis of the deposited data

How the results depend on the processing

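The 37 genes became 67 with at least 20 reads in each lab rat, 22 with at least 50, 17 with at most 2 woodrat reads and 70 with at most 10. With reads scaled to library size they numbered 39, and leaving out 1 animal gave between 39 and 78, the most without woodrat 3. Leaving out an animal can only loosen the limits, so that number could not fall below 37. Woodrat read counts of 1 to 5 limit every ratio. A pooled ratio was taken as moved if its change in percent exceeded the gene's coefficient of variation among lab rats. Leaving out 1 lab rat moved 0 of 37 pooled ratios. The criterion nearly fixed this result, because the coefficient of variation was taken over the same 3 lab rats, so it does not show stability. Leaving out woodrat 1, 2 or 3 moved 15, 16 and 10, and 4, 2 and 10 genes then had no woodrat read and no ratio. The ratios without 1 woodrat and those under 2 other scalings were chosen after seeing the data. Over all genes, 1224 were called lower and 1292 higher in woodrats. DESeq2 called 1930 and 1986, an FDR of 0.05 gave 2383 and 2643, and total counts gave 810 higher. Leaving out 1 animal gave between 459 and 1269 lower and between 393 and 1357 higher, with fewer animals in each fit. On the family lists, 63 lower and 16 higher became between 37 and 69 and between 6 and 17, with the fewest lower without woodrat 2. Of the 91 called list genes and relatives, between 50 and 82 stayed called when 1 animal was left out, the fewest without woodrat 2 or lab rat 3, 77 with total counts, 45 with the replicate block and 91 by DESeq2, and 0 reversed direction in these fits. Animals with the same replicate number did not deviate together (correlations of −0.289, −0.0881 and −0.279), and no animal was closest to its own number. Deviations from a species mean cancel out within that species, so these correlations depend on each other. With 3 animals per species they cannot exclude a day or batch shared by number. The replicate block gave 343 lower and 373 higher over all genes, and 36 and 4 on the lists. For the other moved counts the cause was not tested.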

Other observations

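Some protein genes of secretion and the cell envelope outside the 37 also differed. Stfa3, Serpinb1a, Slpi and Ivl were each called by the edgeR quasi-likelihood test at an FDR below 0.01 with all animals and whichever animal was left out. Stfa3, a stefin that inhibits cysteine proteases, had 26406, 13522 and 27771 reads in lab rats 1, 2 and 3 and 12, 4 and 20 in woodrats 1, 2 and 3. It stood at 3621 ± 1584 CPM in lab rats (SD, n = 3), above Krt12 by reads, and its woodrat reads kept it outside the limit of 5. Stfa2l1, another stefin, had 3077, 1492 and 2508 reads in lab rats and 2418, 3781 and 5133 in woodrats, and was not called (edgeR FDR 0.209). How reads were divided among the stefin genes was not tested. Serpinb1a, an inhibitor of neutrophil proteases, had 2012, 1409 and 2285 reads against 10, 25 and 11. Slpi, an antimicrobial protease inhibitor of mucosae, had 6173, 3780 and 4335 reads against 210, 326 and 509. Ivl, involucrin of the cornified envelope, had 3084, 1707 and 1013 reads against 58, 62 and 66. Of the stefin and cystatin list 1 of 7 genes was called lower and 0 higher, and of clade B serpins 2 of 12 and 0, with between 1 and 6 lower when 1 animal was left out. Of mucosal secreted defence 2 of 7 were lower (Slpi and Crisp1, the latter at an FDR of 0.0140 without woodrat 2) and 0 higher, but 2 higher by DESeq2 and at an unadjusted p under 0.05.

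The late cornified envelope genes went both ways, with 2 of 11 called lower and 4 higher, between 0 and 2 lower and between 1 and 5 higher when 1 animal was left out, and 1 lower and 2 higher with total counts. The study described mapping across species as difficult within this family and summed its reads by family in a secondary analysis. The share of each gene is therefore uncertain. Summed, the 11 genes overlapped between the species, at 478 to 2233 CPM in lab rats and 1009 to 1553 CPM in woodrats. Nefh, the heavy neurofilament chain, had 1320, 745 and 1078 reads in lab rats and 4, 3 and 2 in woodrats, and 2 of 8 genes of its list (with tachykinins, where Tac2 is found) were called lower. Lipn, an epidermal lipase, and Aadac, an arylacetamide deacetylase, were the 2 genes called lower of 19 on the list of carboxylesterases and lipases. Among metabolic lists, 1 of 3 sulfotransferases (Sult1a1) and 1 of 4 gluconeogenesis enzymes (G6pc3) were called lower and 0 higher, the latter list with between 0 and 3 lower when 1 animal was left out, and 0 without woodrat 2. Of the smaller immune lists, 2 of 5 T cell genes and 1 of 2 oligoadenylate synthetases (Oas1g, kept in 1 of the 6 fits that left out 1 animal) were called lower and 0 higher.

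Other lists had calls in both directions. A count of 1 lower and 1 higher came from each of 3 lists, 3 B cell genes (Ighm and Blnk), 11 adaptors of tumour necrosis factor receptors (Traf4 and Tnfrsf1b) and 2 parvalbumins and calbindins (Pvalb and S100g), and 8 ADAM proteases gave 1 lower and 2 higher. Of these, Ighm and Adam8 kept their call whichever animal was left out. Smooth muscle markers summed to between 9564 and 17363 CPM in lab rats and between 34130 and 109332 CPM in woodrats. Of the 6, 1 was called higher (Mylk), between 0 and 4 when 1 animal was left out, 3 with total counts, 4 by DESeq2 and 5 at an unadjusted p under 0.05.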
